A study of Mus musculus with 3 samples.

Results

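The cycling cells of the mouse ascending aorta were taken from single-cell RNA libraries as the cells with at least 3 UMIs summed over Mki67, Top2a, Ube2c and Hist1h1b, from at least 2 of these genes. A UMI is a tag that marks 1 captured RNA molecule. Only barcodes with 600 to 5000 genes, of whose UMIs no more than 10% were mitochondrial, were counted, and 236 of these 26158 cells met the rule. There were 17 among 5361 WT cells, 137 among 8076 mgR cells and 82 among 12721 mgR-LOS cells. The cells were thus chosen by the counts of these 4 genes, which are given below as a description, with no test.

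All mice were male, on a C57BL/6J background, and 45 days old. WT were wild-type littermates (3 mice pooled). mgR mice were homozygous for the hypomorphic Fbn1mgR allele, Fbn1mgR/mgR, which lowers fibrillin-1 in every cell and is a model of severe Marfan syndrome (3 mice pooled). mgR-LOS mice had the same genotype and drank losartan, a blocker of the angiotensin II type 1 receptor, at 0.6 g/L from day 16 (4 mice pooled). The labels do not say whether the mgR mice drank a vehicle. Each condition was 1 library from 1 pool of digested tissue, so mice within a pool could not be compared with each other, the library and the condition cannot be told apart, and no test between conditions was possible. The 95% intervals below cover counting error only. The intervals are exact binomial (Clopper-Pearson) for shares, exact Poisson for UMI sums, exact conditional binomial for ratios, and Newcombe for differences of shares.

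A cell that divides copies its DNA in S phase and separates it in mitosis, and the transcripts it holds change along the way. Mki67 encodes a protein that coats mitotic chromosomes and is found in dividing cells, Top2a a topoisomerase that untangles DNA strands, Ube2c the ubiquitin-conjugating enzyme that works with the anaphase-promoting complex, and Hist1h1b a linker histone made when DNA is copied. In the healthy adult aorta most smooth muscle cells (SMCs), fibroblasts and endothelial cells (ECs) are at rest, and resident macrophages can renew themselves by local division.

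Many genes of G2 and mitosis carry CCAAT boxes, bound by NF-Y, and a cell cycle genes homology region (CHR), bound by the DREAM and MuvB complexes, close to their start, while many genes of DNA replication carry E2F sites. The 250 bases before the RefSeq start of the 4 rule genes are shown because these genes chose the cells, and those of Cdk1, the kinase that drives entry into mitosis, because it lies outside the rule and was high in the same cells. They are from RefSeq on GRCm38.p6, at chr7:135716380-135716629 on the minus strand for Mki67, chr11:99024190-99024439 on the minus strand for Top2a, chr2:164769679-164769928 on the plus strand for Ube2c, chr13:21780626-21780875 on the minus strand for Hist1h1b (H1f5 in RefSeq), and chr10:69352913-69353162 on the minus strand for Cdk1. Each is written 5′ to 3′ on the strand of the gene, and capitals mark CCAAT, the CHR words TTTGAA and TTCGAA, and the E2F words TTTGGCGC, TTTCGCGC, TTTGCCGC and TTTCCCGC, on either strand.
Mki67: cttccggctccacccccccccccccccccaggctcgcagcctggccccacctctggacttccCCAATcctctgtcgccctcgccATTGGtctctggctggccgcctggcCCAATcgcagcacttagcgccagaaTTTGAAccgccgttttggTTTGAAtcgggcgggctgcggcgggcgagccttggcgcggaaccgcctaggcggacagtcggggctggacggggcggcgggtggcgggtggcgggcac
Top2a: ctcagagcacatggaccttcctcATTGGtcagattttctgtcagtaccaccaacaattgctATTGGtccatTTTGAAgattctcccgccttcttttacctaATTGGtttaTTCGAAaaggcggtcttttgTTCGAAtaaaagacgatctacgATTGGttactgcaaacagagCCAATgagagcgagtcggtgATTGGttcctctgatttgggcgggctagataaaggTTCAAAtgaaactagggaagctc
Ube2c: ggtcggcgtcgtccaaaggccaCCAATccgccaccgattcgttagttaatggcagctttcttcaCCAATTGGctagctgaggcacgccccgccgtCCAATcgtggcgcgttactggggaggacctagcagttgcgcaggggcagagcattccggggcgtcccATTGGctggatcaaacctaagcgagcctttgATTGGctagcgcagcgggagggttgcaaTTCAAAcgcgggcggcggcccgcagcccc
Hist1h1b: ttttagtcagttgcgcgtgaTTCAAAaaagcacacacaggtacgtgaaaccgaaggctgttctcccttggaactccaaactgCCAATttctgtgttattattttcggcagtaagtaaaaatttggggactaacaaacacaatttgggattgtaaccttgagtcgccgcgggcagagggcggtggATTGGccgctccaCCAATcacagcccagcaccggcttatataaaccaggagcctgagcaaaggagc
Cdk1: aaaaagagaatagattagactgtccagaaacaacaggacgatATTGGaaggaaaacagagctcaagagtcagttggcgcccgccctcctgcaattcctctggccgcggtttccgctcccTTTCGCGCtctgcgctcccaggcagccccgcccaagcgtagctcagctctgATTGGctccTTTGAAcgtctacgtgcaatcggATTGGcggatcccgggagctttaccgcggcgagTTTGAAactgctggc

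All 4 rule genes held both a CCAAT box and a CHR word in this window, which 7.93% of the 27025 genes in the promoter table did. Top2a had 6 CCAAT boxes and 4 CHR words. Ube2c had 6 CCAAT boxes, of which 2 overlap in 1 palindrome, and 1 CHR word. Cdk1 had 3 CCAAT boxes, 2 CHR words and 1 E2F word. Among the lists of cell cycle genes described below, both motifs were found in 7 of 19 matched promoters of G2/M regulators, 9 of 25 of spindle and kinetochore genes, 4 of 11 of histone genes, 3 of 11 of D cyclins and entry genes, 3 of 25 of replication genes and 0 of 12 of CDK inhibitors. An E2F word was found in 4 of 11 promoters of D cyclins and entry genes, 6 of 25 of replication genes, 2 of 12 of CDK inhibitors, 2 of 25 of spindle genes, 1 of 19 of G2/M regulators and 0 of 11 of histone genes, and in 2.16% of all promoters. A match is a description of the letters, and no match says only that these letters are not in this window.

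The libraries held 7858 to 14663 barcodes and 83338726 to 123956320 UMIs, and the median UMI count of passing cells was 13636 in WT, 12410.5 in mgR and 8334 in mgR-LOS. Cycling cells had medians of 12568, 14223 and 11083 UMIs, against 13637.5, 12378 and 8321 in the other cells. Fbn1, the gene with the hypomorphic allele, was at 361 CPM (UMIs of a gene scaled to a common total of the library) in WT, 150.1 in mgR and 117 in mgR-LOS. No barcode was that of a cycling cell in both libraries of a pair, while 11 to 34 passing barcodes were shared between pairs of libraries. Whether a cycling cell shared its barcode with another kind of passing cell was not counted. A doublet score built from simulated doublets marked 73 of the 137 cycling cells in mgR, against 0 of 17 in WT and 5 of 82 in mgR-LOS. Among the other cells it marked 5.09% in mgR, 3.97% in WT and 9.89% in mgR-LOS. The marked cells were kept. Values without them are given for shares and, at the end, for summed cell cycle lists in immune cells of mgR. The values of single genes, of fibroblasts and of the classes by Hist1h1b and Ube2c were not recomputed without them.

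In mgR 1.70% of cells were cycling (1.43 to 2.0), in mgR-LOS 0.645% (0.513 to 0.80) and in WT 0.317% (0.185 to 0.507). The mgR share was 1.38 percentage points above WT (1.06 to 1.71). The mgR-LOS share was 1.05 points below mgR (interval of the difference, −1.38 to −0.750) and 0.327 points above WT (0.100 to 0.523). With the marked doublets kept, the 3 intervals of the differences did not reach 0. The mgR share was highest and the WT share lowest in all 11 processing settings, which include the main one and the removal of marked doublets. Because cells with more UMIs can pass a UMI limit more easily, every cell was also thinned to 3000 UMIs, leaving out 257, 527 and 763 shallower cells in WT, mgR and mgR-LOS. The thinned shares were 0.235%, 1.27% and 0.485%. Without the cells marked as doublets the shares were 0.330% in WT, 0.842% in mgR and 0.672% in mgR-LOS. The mgR share was then 0.512 points above WT (0.243 to 0.775), and mgR-LOS was 0.171 points below mgR (interval of the difference, −0.438 to 0.0763), which reaches 0. The part of doublets in the mgR share was not tested.

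Within the cycling cells the 4 rule genes varied widely. Mki67 had a lowest, median and highest count per cell of 2, 7 and 37 UMIs in WT, 0, 8 and 46 in mgR, and 0, 8.5 and 86 in mgR-LOS. Ube2c, whose transcript peaks in G2 and mitosis, had a median of 1 UMI in WT, 2 in mgR and 1.5 in mgR-LOS, with highest cells at 52, 33 and 47. Hist1h1b had medians of 2, 4 and 4.5 UMIs and highest cells at 108, 68 and 62. The libraries overlapped over nearly their whole range for each gene. Most cycling cells were far inside the limit: 10 of 17, 85 of 137 and 53 of 82 had at least 15 rule UMIs, while 2, 17 and 8 had 3 or 4.

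Stmn1, which encodes the microtubule-destabilising protein stathmin, was named as a marker of these cells but was not part of the rule. It had at least 1 UMI in 17 of 17 cycling cells in WT, 131 of 137 in mgR and 80 of 82 in mgR-LOS, with medians of 18, 16 and 15 UMIs. Just inside the limit, at 3 or 4 rule UMIs, it stood at 1008 CPM in WT, 456 in mgR and 651 in mgR-LOS. Just outside, in cells with exactly 2 rule UMIs (6, 92 and 64 cells), it was at 0, 103 and 122 CPM. In cells with 3 or more UMIs of only 1 rule gene (3, 31 and 25 cells) it was at 111, 148 and 75.0 CPM. Cells without a rule UMI held 7.37, 9.99 and 10.3 CPM, and in each library the level just inside the limit was above both levels just outside it.

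The lineage of each cell was read from genes that the rule did not use. A cell was past the SMC limit with Acta2 and Myh11 (smooth muscle actin and myosin) at 50 or more UMIs per 10000, past the fibroblast limit with Dcn (decorin) at 20 or more per 10000, past the immune limit with 2 or more UMIs of Ptprc (CD45), and past the EC limit with 3 or more UMIs of Pecam1 (CD31). The immune lineage was the largest among the cycling cells: 9 of 17 in WT (52.9%), 99 of 137 in mgR (72.3%) and 47 of 82 in mgR-LOS (57.3%). Of all passing cells only 1.87%, 16.1% and 3.86% were immune. Fibroblasts gave 4, 15 and 12 cycling cells, SMCs 0, 3 and 2, and ECs 1, 1 and 0. The immune share of cycling cells depended on the limits, and was 41.2%, 53.3% and 34.1% with every lineage limit doubled and 39.1%, 61.5% and 50% with no upper limit on genes. A further 1, 5 and 7 cycling cells were past more than 1 limit and 2, 14 and 14 were past none.

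**Figure D1:**
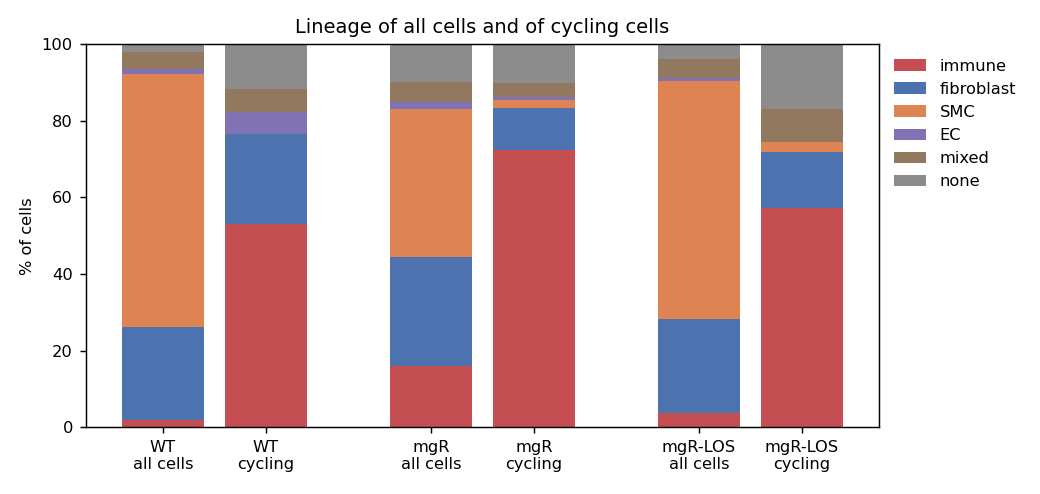
Lineage of the cycling cells and of all passing cells in each library, in percent of the cells of each bar, by the limits on Acta2 and Myh11, Dcn, Ptprc and Pecam1. Immune cells made up 52.9%, 72.3% and 57.3% of the cycling cells in WT, mgR and mgR-LOS, against 1.87%, 16.1% and 3.86% of all passing cells.

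Marker lists that the limits did not use went with these lineages. The immune list (Cd52, Laptm5, Tyrobp and others) summed to 10950 CPM in cycling immune cells of WT, 14278.2 in mgR and 12650.3 in mgR-LOS. Cycling fibroblasts held the fibroblast list (Col1a1, Lum, Pi16 and others) at 24887 CPM in mgR and 32209 in mgR-LOS. Ptprc was at 0 in all 31 cycling fibroblasts of the libraries, but the limits had already left out cells with 2 or more UMIs of it. In mgR 1 cycling fibroblast carried 102 of the 105 UMIs of the immune list found in that group. In mgR-LOS 1 cycling fibroblast carried all 96 UMIs of the mesothelial list found in that group.

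Between 7.63% and 9.57% of the immune cells of each library, read by 2 or more UMIs of Ptprc, were cycling. Deeper cells pass this limit and the rule more easily. Median UMIs were 12052, 14138 and 9730 in cycling immune cells, against 8318, 7952 and 7032 in the others. Other cells past no limit are not counted here, though 37 of 107, 383 of 795 and 291 of 494 carried the immune list (at least 3 UMIs from at least 2 of its genes). In WT 9 of 100 immune cells were cycling (9.0%, 4.20 to 16.4), in mgR 99 of 1298 (7.63%, 6.24 to 9.21) and in mgR-LOS 47 of 491 (9.57%, 7.12 to 12.5). The mgR share was 1.37 points below WT (interval of the difference, −8.72 to 3.1), and the mgR-LOS share was 1.95 points above mgR (−0.839 to 5.16). These intervals reach 0 but are wide, most of all for the 100 WT cells, and do not show that the shares were equal. After thinning, with the lineage still read from the full counts, the shares were 7.61%, 5.99% and 8.14%. Without the cells marked as doublets, which took 45 of the 99 cycling immune cells in mgR, the shares were 9.0%, 4.42% and 9.75%. The mgR-LOS share was then 5.34 points above mgR (2.66 to 8.48) and the mgR share 4.58 points below WT (interval of the difference, −11.9 to −0.195), so that neither interval reached 0.

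The cycling share of SMCs was near the limit of detection. It was 0 of 3545 in WT, 3 of 3117 in mgR (0.0962%, 0.0199 to 0.281) and 2 of 7922 in mgR-LOS (0.0252%, 0.00306 to 0.0912). The WT count allows a share of up to 0.0846% by the limit of 3 counts, and its exact interval reaches 0.104%. The share of immune cells was higher than that of SMCs by 9.0 points in WT (4.81 to 16.2), 7.53 points in mgR (6.20 to 9.10) and 9.55 points in mgR-LOS (7.25 to 12.5). Free RNA from lysed cells can add single UMIs to any cell, and its part was not tested. As a description, 1.41%, 3.43% and 2.20% of SMCs held at least 1 rule UMI, against 22.0%, 24.2% and 29.9% of immune cells. These shares include the cycling cells, which the same UMIs chose. The SMCs were the deeper cells, with medians of 14342, 15112 and 8528 UMIs against 8596.5, 8233 and 7351.

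Fibroblasts lay between, at 0.308% in WT (4 of 1297), 0.657% in mgR (15 of 2283) and 0.388% in mgR-LOS (12 of 3091). The mgR share was 0.349 points above WT (−0.198 to 0.813) and the mgR-LOS share 0.269 points below mgR (interval of the difference, −0.724 to 0.119), and both intervals reach 0. In mgR 12 of the 15 cycling fibroblasts were marked as doublets, and without marked cells the shares were 0.316%, 0.134% and 0.371%, so that mgR became the lowest.

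**Figure D2:**
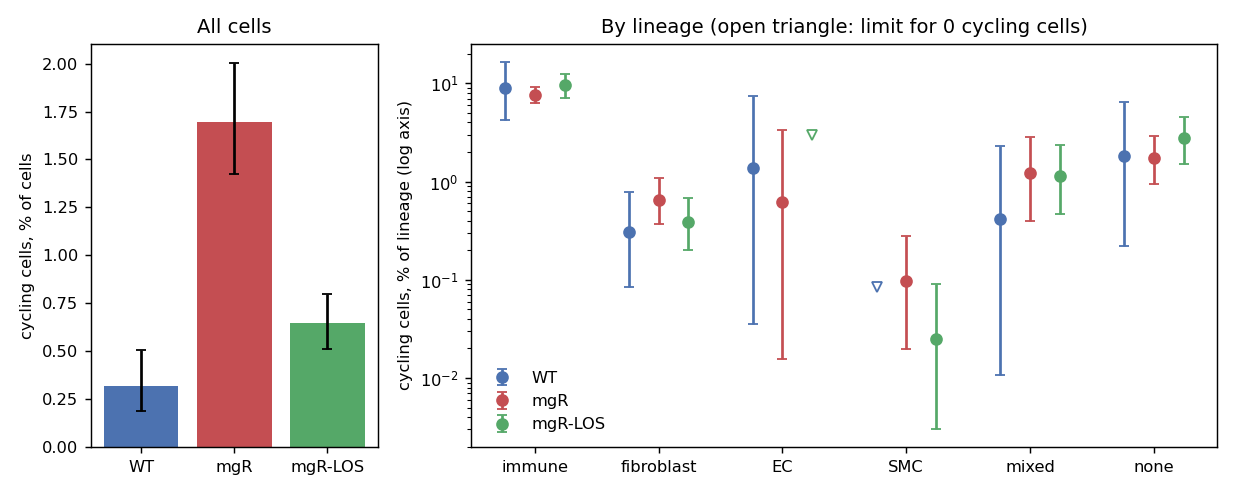
Share of cycling cells in percent of all passing cells of each library (left, linear axis) and in percent of each lineage (right, log axis), with exact 95% binomial intervals; open triangles mark the share that 0 cycling cells would allow. On the left mgR stood at 1.70%, mgR-LOS at 0.645% and WT at 0.317%, while on the right the immune lineage stood highest in each library, at 9.0% in WT, 7.63% in mgR and 9.57% in mgR-LOS.

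Immune cells were 16.1% of the mgR library, against 1.87% in WT and 3.86% in mgR-LOS. With the WT cycling share of each lineage applied to the mgR make-up, the overall share came to 1.77%. With the mgR shares applied to the WT make-up it came to 0.463%, and applied to the mgR-LOS make-up to 0.647%. The 1.77% rests on a WT immune share of 9 of 100 cells (4.20 to 16.4), and these values keep the marked doublets. The part of the make-up in the overall share was not tested. Outside the immune lineage the shares were 0.152% in WT, 0.561% in mgR and 0.286% in mgR-LOS. This group also holds the cells past more than 1 limit, also where 1 of these was the immune limit, and the cells past none. There the mgR share was above WT by 0.409 points (0.197 to 0.630), and mgR-LOS was 0.274 points below mgR (interval of the difference, −0.497 to −0.0860). Without the marked doublets these differences were lost: 8 of 5049 cells in WT (0.158%), 10 of 6376 in mgR (0.157%) and 30 of 10984 in mgR-LOS (0.273%) were cycling outside the immune lineage. The mgR-LOS share was then 0.116 points above mgR (−0.0387 to 0.253). With the marked cells kept, some cycling cells outside the immune lineage carried the immune list. Of those past no limit it was 2 of 2 in WT, 10 of 14 in mgR and 10 of 14 in mgR-LOS. Of those past more than 1 limit it was 0 of 1, 5 of 5 and 7 of 7, and of the fibroblasts 0 of 4, 1 of 15 and 0 of 12. The 5 and 7 cells were all past the immune limit themselves, so that the immune list goes with their Ptprc. In mgR 4 were also past the fibroblast limit and 1 past the EC limit. In mgR-LOS 5 were also past the SMC limit and 2 past the fibroblast limit.

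The macrophage list led most of the cycling immune cells. The leading list is the one of 6 immune marker lists with the most UMIs in a cell (at least 5), a split chosen after the data were seen. Cells led by the macrophage list (C1qa, Csf1r, Mrc1 and others) gave 5 of 9 cycling immune cells in WT, 66 of 99 in mgR and 31 of 47 in mgR-LOS. Their cycling shares were 8.20%, 8.27% (6.45 to 10.4) and 8.99% (6.19 to 12.5). Without the marked doublets they were 8.20%, 4.89% and 9.14%. Cells led by the monocyte and dendritic cell list were cycling in 1 of 10, 15 of 226 and 8 of 87 cells. Cells led by the B cell list were cycling in 0 of 4, 9 of 110 and 0 of 2. Neutrophils mature in the marrow and no longer divide in tissue, and of the cells led by their list 0 of 3, 0 of 40 and 0 of 8 were cycling. These cells were shallow, with medians of 2733, 2166.5 and 1703 UMIs. By the limit of 3 counts, their numbers allow a share of up to 7.5% in mgR and 37.5% in mgR-LOS.

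Cells led by the T and NK cell list were cycling in 3 of 18 cells in WT, 8 of 96 in mgR (8.33%) and 8 of 37 in mgR-LOS (21.6%, 9.83 to 38.2). The mgR-LOS share was 13.3 points above mgR (0.742 to 29.4) and 12.6 points above the macrophage-led cells of its own library (1.82 to 28.4). These rest on 8 cells in each library, and 1 of the cycling immune cells in mgR-LOS held 128 of their 382 UMIs of the T and NK list. Without the marked doublets the mgR share was 5 of 91 (5.49%), and mgR-LOS, still 8 of 37, was 16.1 points above it (3.88 to 32.0).

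The cycling SMCs, ECs and unassigned cells were few enough to read singly. The 3 cycling SMCs of mgR had 232, 210 and 652 UMIs of Acta2. The cell at 232 was marked as a doublet, and the cell at 652 held 81 UMIs of the replication list and 29 of the G2/M list. The cell at 210 held 2 UMIs of Top2a, 1 of Hist1h1b and 354 of the fibroblast list. Of the 2 in mgR-LOS, 1 had 280 UMIs of Acta2, 21 of Mki67 and 14 of Top2a, and the other had 97 of Acta2, 121 of the macrophage list and was marked as a doublet. The cycling EC of WT had 15 UMIs of Pecam1, 77 of the EC list and 186 of the G2/M list, and also 107 of the macrophage list and 27 of Dcn. It held 0 UMIs of the immune list and of Ptprc and was not marked as a doublet. The cycling EC of mgR had 3, 55 and 113 UMIs of Pecam1, the EC list and the G2/M list and was marked as a doublet.

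Of the cycling cells past no lineage limit, the macrophage list had the most UMIs of the cell type lists in 2 of 2 in WT, 7 of 14 in mgR, with 129 to 507 UMIs, and 7 of 14 in mgR-LOS, with 100 to 460. These cells had at most 1 UMI of Ptprc. In mgR 1 cell held 1418 UMIs of the erythroid list of haemoglobin and red cell genes and was marked as a doublet.

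Barcodes with more than 5000 genes were left out of the counts above, and many met the rule: 6 of 247 in WT (2.43%, 0.897 to 5.21), 37 of 519 in mgR (7.13%, 5.07 to 9.69) and 18 of 209 in mgR-LOS (8.61%, 5.18 to 13.3). Of these, 0 of 6, 28 of 37 and 4 of 18 were marked as doublets. The upper limit bore most on SMCs. Over it, 3 of 152 SMC barcodes in WT, 11 of 190 in mgR and 4 of 58 in mgR-LOS met the rule, so that 3 of 3, 11 of 14 and 4 of 6 of all SMC barcodes that met it lay over the limit. Thinned to 3000 UMIs, 3 of 152, 7 of 190 and 2 of 58 still met it, against 0 of 3443, 1 of 3011 and 1 of 7668 SMCs within the limit. Their immune list had 0 UMIs in WT, 0 to 2 in mgR and 0 to 56 in mgR-LOS. The doublet score marked 0 of 3, 8 of 11 and 1 of 4. SMC barcodes over the limit had medians of 30034.5, 31234.5 and 27651 UMIs, and whether they were single cells was not tested.

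**Figure D3:**
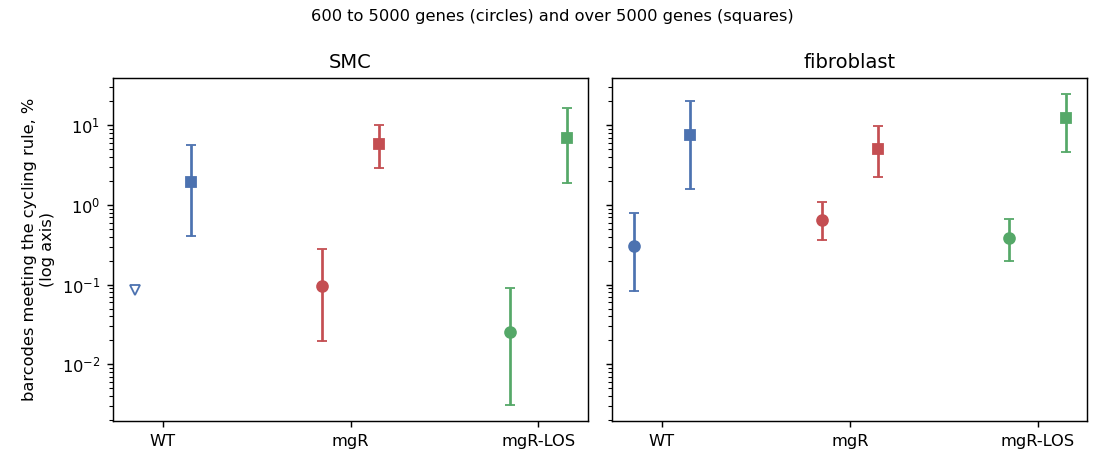
Share of SMC and fibroblast barcodes that met the cycling rule, as counted, in percent on a log axis, within 600 to 5000 genes (circles) and over 5000 genes (squares), with exact 95% binomial intervals; the open triangle marks the share that 0 of 3545 would allow. Among SMC barcodes in mgR the share was 5.79% over the limit and 0.0962% within it, and among fibroblasts 5.10% and 0.657%.

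Genes outside the rule were then compared between the cycling and the other immune cells of each library, as CPM of UMIs summed over the cells and for genes with at least 50 CPM in either. As the rule chose on cell cycle transcripts, a rise of such genes follows in part from the choice, and the ratios are given as a description. Of the 3714, 3175 and 3463 genes compared in WT, mgR and mgR-LOS, 22.8%, 8.85% and 12.7% were at least 2-fold higher in the cycling cells and 9.21%, 3.69% and 6.35% at least 2-fold lower. The median ratio over these genes was 1.24, 1.04 and 1.08. WT had 9 cycling immune cells, so that its ratios scatter most.

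Genes of DNA replication were higher throughout. All 23, 19 and 21 compared genes of the replication list were at least 2-fold higher, with median ratios of 15.8, 7.84 and 8.55. Pcna, the sliding clamp of the DNA polymerases, was at 510 CPM in cycling immune cells of WT and 113 in the others, at 428 and 112 in mgR, and at 373 and 93.2 in mgR-LOS. Its ratio was 3.82 in mgR (3.45 to 4.22) and 4.01 in mgR-LOS (3.33 to 4.80), below the median of the list. Tyms, the thymidylate synthase that supplies dTMP, was at 107 against 6.37 CPM in mgR and 108 against 5.90 in mgR-LOS. Mcm5, a subunit of the replicative helicase, was 12.6-, 7.84- and 5.92-fold higher.

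Histone genes, whose transcripts accumulate in S phase, were at least 2-fold higher for 6 of 7, 8 of 9 and 10 of 10, with median ratios of 16.5, 19.6 and 44.6. Hist1h2ap, a core histone gene, was at 1581 CPM in cycling immune cells of WT and 54.0 in the others, at 3661 and 34.2 in mgR, and at 2823 and 36.0 in mgR-LOS. The histone genes are near-identical copies, so their counts may be shared among them. Hist1h1c, a linker histone gene also used outside S phase, had ratios of 0.63, 1.22 and 2.36.

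The G2/M regulators were at least 2-fold higher for 15 of 16, 16 of 16 and 18 of 18 compared genes, with median ratios of 54.3, 63.7 and 67.3. Cdk1 stood at 196 CPM in cycling immune cells of WT and 5.02 in the others, at 197 and 3.38 in mgR, and at 202 and 3.54 in mgR-LOS. Birc5 (survivin), of the chromosomal passenger complex, was at 390 and 2.09 CPM in mgR. The spindle and kinetochore list was at least 2-fold higher for 23 of 23, 27 of 27 and 26 of 26 genes, with median ratios of 45.9, 31.8 and 28.9. Its Cenpf, a kinetochore protein, was at 292 against 1.59 CPM in mgR. Pttg1 (securin), the inhibitor of separase, was the 1 gene of the G2/M list at least 2-fold lower, in WT.

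The genes that govern entry into the cycle differed less. The list of D cyclins and other entry genes was at least 2-fold higher for 4 of 7, 2 of 6 and 2 of 6 genes, with median ratios of 2.41, 1.27 and 1.44. Ccnd2 (cyclin D2) was lower in the cycling cells in each library, at 93.9 against 136 CPM in mgR (ratio 0.69, 0.575 to 0.827). Ccnd1 (cyclin D1) had ratios of 0.56, 1.32 and 1.17.

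Among the CDK inhibitors and antiproliferative genes, 2 of 8, 3 of 8 and 4 of 9 were at least 2-fold higher, with median ratios of 1.42, 1.49 and 1.47. Cdkn2c (p18, an inhibitor of CDK4 and CDK6) stood at 136 CPM against 8.79 in WT, 99.5 against 11.4 in mgR and 142 against 10.0 in mgR-LOS, ratios of 15.5, 8.70 and 14.2. Cdkn2d (p19) was 2.71-, 4.34- and 3.58-fold higher, and Rbl1 (p107, of the retinoblastoma family) 5.07-fold in mgR and 7.46-fold in mgR-LOS. Cdkn1a (p21), the inhibitor induced by p53, and Btg2, an antiproliferative gene, had ratios of 1.14 and 0.83 in mgR and 1.13 and 0.85 in mgR-LOS.

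**Figure D4:**
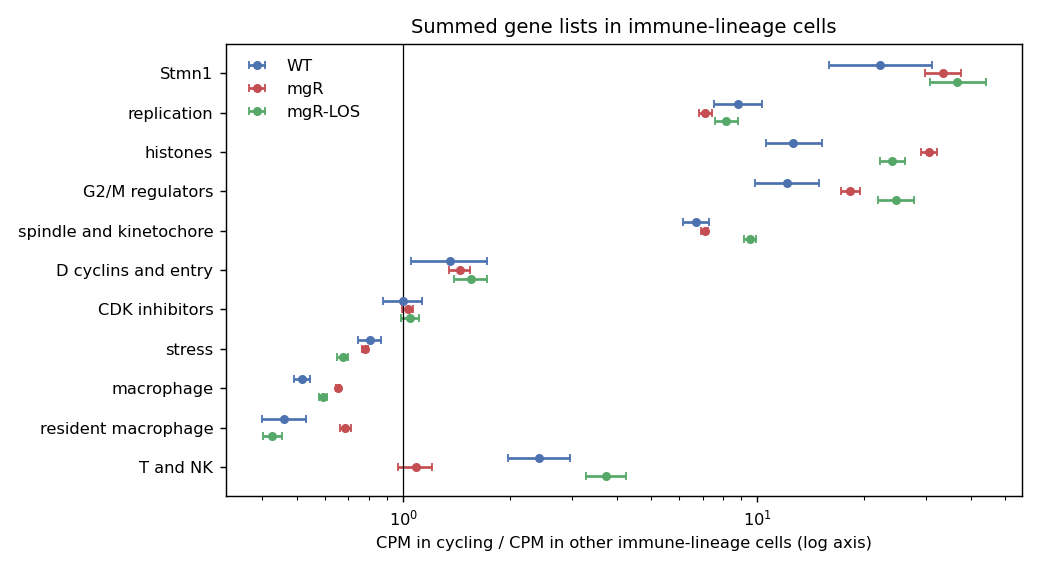
Ratio of summed CPM in cycling over other immune cells, on a log axis, for Stmn1 and 10 gene lists in each library, with exact 95% intervals of counting error. The replication, histone, G2/M and spindle lists lay between 6.72 and 30.5, while the D cyclin list lay between 1.35 and 1.55 and the CDK inhibitor list between 0.996 and 1.04.

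The summed macrophage list and the list of genes shared by immune cells had ratios under 1 in the cycling immune cells, while other immune lists varied. The summed macrophage list had ratios of 0.518, 0.653 and 0.593, and the list of genes shared by immune cells had 0.505, 0.807 and 0.667. The T and NK list had 2.42, 1.08 and 3.74, the monocyte and dendritic cell list 1.83, 0.462 and 0.460, and the B cell list 0.237, 0.593 and 3.54. Of the macrophage list 5 of 10, 2 of 10 and 4 of 10 genes were at least 2-fold lower. The list of resident macrophage genes had 7 of 8, 2 of 7 and 6 of 8. Apoe, the lipid carrier of tissue macrophages, was at 4710 CPM against 11097.1 in WT, 5834 against 11879.6 in mgR and 3523 against 8269 in mgR-LOS. Lyve1, the hyaluronan receptor of resident arterial macrophages, was at 242 against 420.02 CPM in mgR and 189 against 774 in mgR-LOS. C1qa, a subunit of complement C1q, differed less, with ratios of 0.61, 0.86 and 0.79.

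Among macrophage-led cells alone, 9.03% and 10.9% of genes were at least 2-fold higher and 2.97% and 5.79% at least 2-fold lower in mgR and mgR-LOS. There 0 of 10 and 4 of 10 genes of the macrophage list and 2 of 8 and 5 of 8 of the resident list were at least 2-fold lower. The summed macrophage list had 0.680 and 0.661, and the immune list 0.768 and 0.713. Lyve1 had ratios of 0.59 and 0.27, Folr2 (folate receptor beta) 0.51 and 0.35, and Apoe 0.51 and 0.47. Over all immune cells the dissociation stress list had ratios of 0.803, 0.781 and 0.675 in WT, mgR and mgR-LOS. The SMC list, a measure of free RNA in immune cells, had 0.880, 0.617 and 0.622 there. In the macrophage-led cells of mgR and mgR-LOS the stress list had 0.784 and 0.681, and the SMC list 0.687 and 0.740.

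Of the genes outside all lists, those with the largest ratios in cycling immune cells by the naming rule were Knl1, a kinetochore scaffold, at 146 against 1.69 CPM in mgR and 198 against 1.18 in mgR-LOS, Kif15, a mitotic kinesin, Lockd, a long non-coding RNA next to Cdkn1b, H2afx, the histone variant of the DNA damage response, and Ezh2, the methyltransferase of Polycomb repressive complex 2. Ezh2 had ratios of 27.1, 9.5 and 21.3 in WT, mgR and mgR-LOS. Those with the smallest were Ccl8, a chemokine, with ratios of 0.0470, 0.130 and 0.154, Ednrb (endothelin receptor B), Lyz1 (lysozyme), Fcna (ficolin A) and Hmox1 (haem oxygenase). Hmox1 was at 74.8 against 217 CPM in mgR and 69.3 against 332 in mgR-LOS. Lyz1 differed most between libraries, with a ratio of 0.300 in mgR and 0.0102 in mgR-LOS, and shares reads with its near-identical neighbour Lyz2.

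Cycling fibroblasts, 15 in mgR and 12 in mgR-LOS, had the same gene groups higher. Of these, 12 in mgR and 2 in mgR-LOS were marked as doublets, and the ratios were not recomputed without them. Of the 3726 and 3837 genes compared, 14.4% and 15.2% were at least 2-fold higher and 6.2% and 4.59% lower than in the other fibroblasts. The replication list was at least 2-fold higher for 15 of 15 and 20 of 20 genes and the spindle list for 30 of 30 in both. Cdk1 was at 261 CPM against 3.51 in mgR and 236 against 0.910 in mgR-LOS. Cdkn2c was again higher, with ratios of 11.5 and 13.3, while the summed CDK inhibitor list had 0.944 and 1.26.

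Some matrix and surface genes of fibroblasts were at least 2-fold lower, as were 6.2% of all compared genes in mgR and 4.59% in mgR-LOS. The summed fibroblast list had ratios of 0.741 in mgR and 0.849 in mgR-LOS, with 0 of 10 and 2 of 10 genes at least 2-fold lower. The list of activated fibroblast genes had 0.604 and 0.761, with 2 of 8 in each. Col1a1, the main collagen I chain, had ratios of 0.69 and 0.91. Mgp, the matrix inhibitor of calcification, was at 11541.5 against 22264 CPM in mgR and 8159 against 14034.1 in mgR-LOS. Vcam1, an adhesion molecule, was at 177 against 638 CPM in mgR and 236 against 580.3 in mgR-LOS. Pi16, a marker of adventitial fibroblasts, differed between the libraries, with ratios of 0.88 and 0.30.

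The cycling cells were also split by Hist1h1b and Ube2c. As both are rule genes, the values of the classes are a description. Cells with Hist1h1b and no Ube2c numbered 3, 23 and 17 in WT, mgR and mgR-LOS. Cells with both numbered 8, 72 and 41, and those with Ube2c and no Hist1h1b 4, 22 and 16, while 2, 20 and 8 had neither. In mgR the replication list was at 4367 CPM in the first class and 1072 in the last, and the G2/M list at 1121 and 4118. In mgR-LOS the replication list was at 4862 and 732, and the G2/M list at 1330 and 2943. Cells with both genes held the replication list at 3269.6 CPM in mgR and 2648 in mgR-LOS and the G2/M list at 3279.5 and 3580.1. Cells with neither held the replication list at 2489 and 2959 and the G2/M list at 1077 and 457.

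In mgR, Pcna was at 655 CPM with Hist1h1b alone and 122 with Ube2c alone, and Hist1h2ap at 2265 and 118. Ccnb1 (cyclin B1), the partner of Cdk1, was at 6.43 and 244 CPM, and Cdc20, the activator of the anaphase-promoting complex, at 12.9 and 308. In mgR-LOS Ccnb1 was at 12.5 and 130.1 CPM and Cdc20 at 25.1 and 265.

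By single cells, 22 of 23 cells with Hist1h1b alone in mgR held more UMIs of the replication list than of the G2/M list, against 3 of 22 with Ube2c alone. In mgR-LOS these were 14 of 17 and 1 of 16. Over all cycling cells the replication list was the larger in 11 of 17 in WT, 72 of 137 in mgR and 32 of 82 in mgR-LOS. Among immune cells it was the larger in 6 of 9, 54 of 99 and 18 of 47, and among fibroblasts in 3 of 4, 4 of 15 and 5 of 12.

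**Figure D5:**
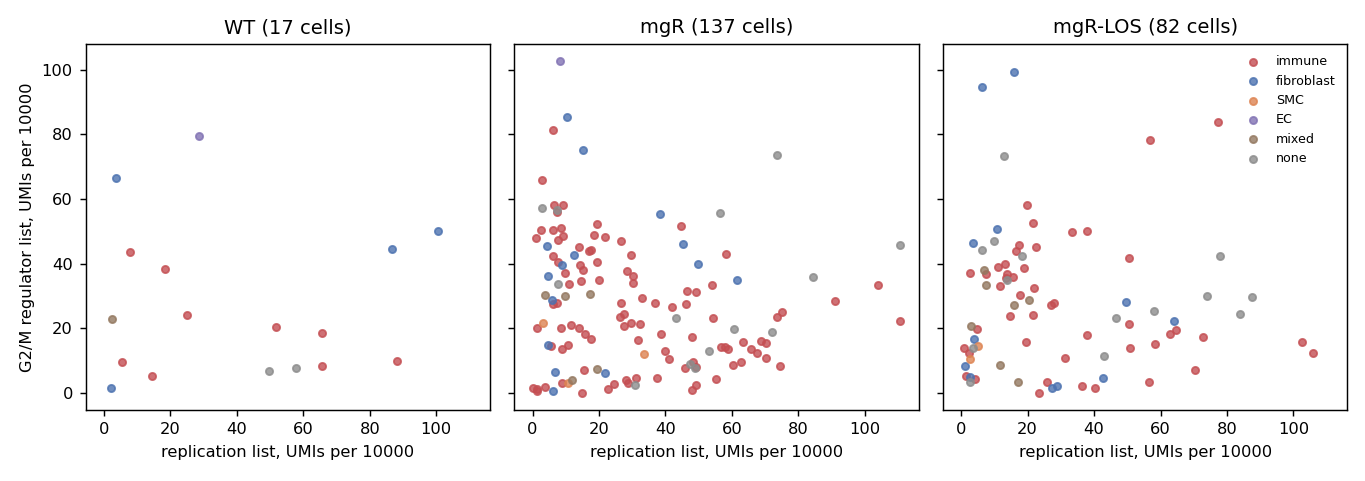
UMIs of the G2/M regulator list (vertical axis) against UMIs of the replication list (horizontal axis), both per 10000 UMIs of the cell, for each cycling cell by library, coloured by lineage. Cells spread along both axes in each library, and the replication list was the larger in 11 of 17 cells in WT, 72 of 137 in mgR and 32 of 82 in mgR-LOS.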

How the data were processed

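Cells of 3 libraries (WT, mgR and mgR-LOS) of mouse ascending aorta, 10x 3′ v3.1, were analysed from the count matrices the authors deposited, which hold UMI counts of 32285 genes per cell barcode. The file headers name CellRanger 5.0.1 for WT and mgR and 6.0.1 for mgR-LOS, while the submitters' processing notes name Cell Ranger 6.0.1 and mm10 for all 3. The difference of version cannot be told apart from the condition. Raw reads were not used.

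Barcodes within 600 and 5000 genes were analysed where mitochondrial transcripts made up no more than 10% of UMIs, and the cycling rule and lineage limits given in the text were applied. The members, lists and limits were chosen with earlier results of these data known. Sums of UMIs over cells were scaled to CPM, and a gene counted as higher or lower at a 2-fold ratio with at least 50 CPM in either group, with no test. Named genes came from the lists plus, outside them, the 5 largest and 5 smallest ratios in a lineage with 20 or more cycling cells in 2 or more libraries, at 100 CPM or more, which only the immune lineage had. Doublets were marked and kept. For each library simulated doublets (25% of the cells and doublets together) were scored by their share among neighbours in 10 principal components of 2000 variable genes, and barcodes were marked at a rate of 0.8% per 1000 barcodes. Thinning drew 3000 UMIs per cell with a fixed seed. A share of 0 was given the limit of 3 counts. Alternatives covered the rule, its genes, the gene and mitochondrial limits, doublets, thinning, the lineage limits and the CPM total. The ratio script was tested on simulated counts. Python 3.11.15, numpy 2.4.6, scipy 1.17.1 and scikit-learn 1.9.0 were used. Promoters came from RefSeq on GRCm38.p6.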

Additional observations from a re-analysis of the deposited data

Results flagged for a closer look

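Signal for cycling cells was present in barcodes that the comparisons left out, above the level of the WT library. Of the barcodes over 5000 genes, 7.13% met the cycling rule in mgR and 8.61% in mgR-LOS, against 2.43% in WT. Of those that met it, 28 of 37 in mgR, 4 of 18 in mgR-LOS and 0 of 6 in WT were marked as doublets. Of the barcodes with more than 10% mitochondrial UMIs, 0.70% (9 of 1285) met it in mgR, against 0.0920% (1 of 1087) in WT and 0.185% (2 of 1082) in mgR-LOS. The differences were not tested, since each condition was 1 library.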

How the results depend on the processing

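Of 210 values recomputed under an alternative, 183 stayed within the 95% interval of the reported value and 27 moved outside it. No paired analysis was possible because each condition was 1 library. With no upper gene limit the mgR cycling share was 2.02%, the immune share of its cycling cells 61.5% and its SMC share 0.423%. At 5% mitochondrial UMIs or less the shares were 0.75%, 2.29% and 0.979% in WT, mgR and mgR-LOS, and the mgR-LOS SMC share 0. With 2 rule UMIs sufficing the mgR share was 2.02% and the mgR-LOS fibroblast share 0.679%. Without marked doublets the mgR values were 0.842% cycling, 84.4% immune among cycling cells, 4.42% of immune cells, 4.89% of macrophage-led cells and 0.134% of fibroblasts, and the list ratios were 7.56 for replication, 13.7 for G2/M, 5.95 for spindle and 0.944 for CDK inhibitors, the last crossing 1 from 1.03. Thinning to 3000 UMIs, which leaves fewer rule UMIs per cell, gave 1.27% in mgR, 0.485% in mgR-LOS, 5.99% of mgR immune cells and 5.73% of its macrophage-led cells, and to 1000 UMIs 0.131%, 0.607% and 0.267% in WT, mgR and mgR-LOS. Doubled lineage limits, which fewer cells pass, gave an immune share of cycling cells of 53.3% in mgR and 34.1% in mgR-LOS. The cause of the other moves was not tested. Shares of SMCs and of WT rest on few cycling cells, and counting error is the only error these libraries give.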
